A study of Mus musculus with 53 samples.

Results

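The liver tumors described here carried a single floxed allele of Trp53, the gene of the p53 tumor suppressor, together with 2 floxed alleles of Mad2l1, which encodes a core protein of the spindle assembly checkpoint. They are compared with healthy mouse liver by transcript levels on Illumina bead arrays. The comparison uses 16 of the 53 samples of the series. Liver tumors 14 to 18, 28 and 29 are 7 of its 8 p53 f/+ tumors and came from 4 mice, and healthy livers 2 to 10 are 9 of its 10 healthy livers. Members were chosen by genotype and tissue label, less 2 arrays. Liver tumor 13 was dim, with 28.3% of probes detected against 34.8 to 37.5% in the other p53 f/+ tumors. Healthy liver 1 resembled tumor tissue, with a log2 level of 4.68 for the liver transcript Mup3 against 14.26 to 15.42 in the 9 livers kept.

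All mice were on a mixed B6-129Sv background. Tumor-bearing mice were Mad2f/f p53f/+ Alb-Cre+, so that Cre from the albumin promoter could delete the floxed parts of Mad2l1 and of 1 Trp53 allele in hepatocytes, and the healthy livers were wild type. For the spread between arrays, and for a second comparison, 20 liver tumors in which both copies of Trp53 were floxed (15 mice, Mad2f/f p53f/f Alb-Cre+, here p53 f/f) entered the same fit. Neither age nor sex is in the labels used here, and the healthy livers come without Cre or floxed alleles, so genotype and tumor state cannot be told apart in this comparison. Tumors were frozen pieces that also hold vessels, stroma, immune cells and adjoining liver in which recombination can be incomplete. Tumors 14 and 15, 16 and 17, and 28 and 29 shared a mouse each, and tumor 18 came alone.

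Hepatocytes make most plasma proteins, synthesize bile acids from cholesterol, break down amino acids and detoxify foreign compounds, with different tasks near the portal tract and near the central vein of each lobule. Male mouse liver also secretes major urinary proteins, small lipid carriers that bind pheromones, in very large amounts under the control of pulsed growth hormone. Liver tumors commonly switch fetal genes back on and lose parts of this adult program, and p53 normally halts or kills cells after DNA damage or faulty chromosome segregation.

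Levels are log2 normalized intensities, on a scale that ran to 15.77 at its top. Differences are the tumor mean minus the healthy mean, each given ± its standard error, over 7 tumors and 9 livers. A gene was called when limma's p-value, adjusted by the Benjamini-Hochberg method over all 9925 genes tested, was under 0.05. A gene's groups are said not to overlap when every tumor lay on the same side of every healthy liver. In pieces of tissue, fewer cells of a type and less RNA per cell cannot be told apart.

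Some arrays stood apart. Healthy liver 5 correlated at 0.800 to 0.828 across genes with the other healthy livers, whose own pairs reached 0.984, and tumor 14 at 0.868 to 0.913 with the other tumors. Xist, the noncoding RNA of the inactive X chromosome in females, was detected in tumors 28 and 29 and in healthy livers 6 to 10, and not in the other tumors and livers compared. Results are also given for the 5 tumors (3 mice) and 4 livers without Xist. That set holds fewer arrays, so a call lost there does not by itself mean a smaller difference. Xist does not settle the sex of a tumor here: of 2 p53 f/f tumors from the same mouse, tumor 22 had a level of 8.40 and was detected, and tumor 23 had 4.58 and was not. The Y-linked gene Eif2s3y was called detected in arrays with and without Xist. Tumors and livers shared an array slide only for tumors 28 and 29 and healthy livers 2 and 3, so slide and group can hardly be told apart. Correlations were 0.872 to 0.972 for the 3 pairs of tumors from the same mouse and 0.868 to 0.984 for pairs from different mice.

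Between the tumors and healthy liver, 1224 genes (12.3% of those tested) were higher in the tumors and 1063 genes (10.7%) were lower. At least 2-fold changes made up 787 (7.93%) of the higher and 378 (3.81%) of the lower calls. Tumors and livers did not overlap for 353 genes (3.56%) with the tumors higher and for 200 (2.02%) with the tumors lower. The median difference over all genes was -0.03. When arrays were scaled to a common median in place of quantiles, that median moved to 0.24, and 1821 genes were called higher and 327 lower, so that 84.8% of the calls were higher against 53.5% before. With the arrays without Xist alone, 465 genes were higher and 373 lower, of which 432 and 283 were also called over all arrays. With healthy liver 1 put back the counts were 682 and 438, and 53 of the 135 named genes called lost their call. That liver was left out as resembling tumor tissue, so statements that groups do not overlap hold for the 9 livers kept. With it as a 10th liver the groups did not overlap for 76 genes (0.766%) with the tumors higher and 29 (0.292%) lower. The authors' own log2 values gave 739 higher and 906 lower, or 44.9% higher. With slide in the model, only slide 6 with 2 tumors of a single mouse and 2 livers informed the comparison, and 196 genes were higher and 194 lower.

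The tissue labels were checked against markers. Transcripts of hepatocyte secretory proteins lay near the top of the scale in both groups, where a change in level may not show. Apoa1, the main protein of high-density lipoprotein, ranged from 15.40 to 15.48 in the tumors and from 15.15 to 15.65 in the livers. Ttr, the thyroid hormone carrier transthyretin, ranged from 14.18 to 14.84 in the tumors and from 14.65 to 15.18 in the livers, a difference of -0.42 ± 0.13 (adjusted p = 0.0175). Of 10 hepatocyte identity genes tested, 2 fell and none rose (median -0.49), beside 10.7% of all genes lower. The second was Serpina1a, alpha-1-antitrypsin (-1.07 ± 0.37, adjusted p = 0.0343), a call lost in 15 of 32 alternatives. The mean level of the list was 11.70 to 12.35 in the tumors and 12.43 to 12.67 in 8 livers, while healthy liver 5 lay below all tumors at 10.94. Without healthy liver 5, 5 of the 10 fell (median -0.72), and on the arrays without Xist none was called. Neither Ttr (-0.07, adjusted p = 0.92) nor Serpina1a (-0.65, adjusted p = 0.425) passed with healthy liver 1 put back.

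**Figure D1:**
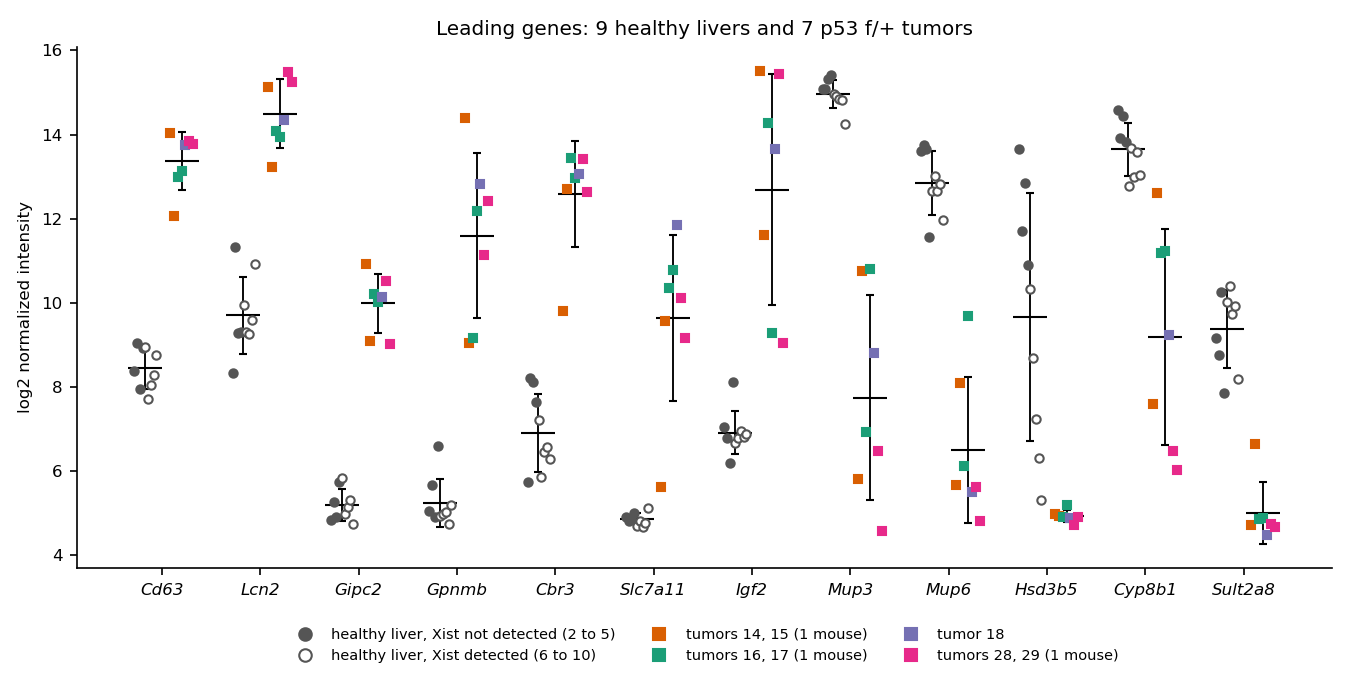
Log2 level (vertical axis) of 12 genes with large changes, 1 point per array, for 9 healthy livers (filled or open by whether Xist was detected) and 7 p53 f/+ tumors (coloured by mouse), with group means and SD. Cd63, Lcn2, Gipc2, Gpnmb, Cbr3, Slc7a11 and Igf2 lay higher in every tumor than in every liver, and Mup3, Mup6, Hsd3b5, Cyp8b1 and Sult2a8 lay lower.

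The gene with the smallest adjusted p-value among those named was Cd63, which encodes a tetraspanin of lysosomes and exosomes. Its level was 12.06 to 14.04 in the tumors (median 13.76) and 7.71 to 9.03 in the livers (median 8.39). Cd63 was 4.93 ± 0.25 higher in the tumors (adjusted p = 1.29e-17). All 7 tumors lay far above the highest liver. Among the named genes higher in the tumors, Lcn2, an iron-scavenging protein secreted by injured epithelia and neutrophils, followed. Lcn2 ran from 13.24 to 15.50 in the tumors (median 14.34) and from 8.34 to 11.32 in the livers (median 9.32). The difference was 4.79 ± 0.36 (adjusted p = 1.50e-12), again with no overlap.

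Gpnmb, a membrane glycoprotein of lysosome-rich macrophages and of some tumor cells, was 6.37 ± 0.79 higher (adjusted p = 4.77e-07). It was detected in 1 of the 9 livers, so the size of this difference rests on signals near background. Its 7 tumor values spread from 9.04 to 14.39 (median 12.19), with tumor 14 highest and tumors 15 and 16 lowest, while the livers lay between 4.74 and 6.60 (median 5.02). Tumors 14 and 15, from the same mouse, held the extremes. Ly6d, a small surface protein of the Ly6 family, was 5.85 ± 1.09 higher (11.17 to 13.73 against 4.83 to 9.81, adjusted p = 0.000185). Wfdc3, a WAP-domain protein of the protease inhibitor family, was 5.40 ± 0.82 higher (9.45 to 11.46 against 4.76 to 5.87, adjusted p = 1.03e-05). Gipc2, a PDZ-domain adaptor, was 4.79 ± 0.53 higher (9.02 to 10.92 against 4.73 to 5.84, adjusted p = 4.51e-08). None of these genes overlapped between the groups, and the livers with the probe detected numbered 2 for Wfdc3 and 1 for Gipc2. Tff3, a trefoil peptide of mucosal repair, rose by 4.77 ± 0.80 (adjusted p = 4.3e-05, detected in 1 liver), and the endothelial proteoglycan Esm1 by 4.36 ± 0.46 (adjusted p = 1.83e-08).

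Lrp11, Fndc10, Cbr3 and Mup3 were listed for description as possible markers of the p53 f/+ tumors, a choice made with earlier results of these data known. Their p-values here and below are therefore descriptions. For Lrp11, a member of the low-density lipoprotein receptor-related family, the tumors ranged from 6.91 to 11.28 (median 9.60) and the livers from 4.89 to 6.91 (median 5.84). The lowest tumor thus met the highest liver, and the difference was 3.64 ± 0.53 (adjusted p = 4.79e-06). For Fndc10, a fibronectin type III domain protein, the tumors ranged from 9.28 to 10.80 (median 10.15) and the livers from 6.52 to 7.61 (median 7.03). The groups were apart, and the tumors varied little among themselves, with a difference of 3.00 ± 0.57 (adjusted p = 0.000204). Without Xist-positive arrays Lrp11 was 3.19 higher (adjusted p = 0.00768) and Fndc10 2.67 higher (adjusted p = 0.0427).

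These genes were also compared with the 20 p53 f/f tumors, to ask how tumors with a single floxed Trp53 allele differ from those with both. There 52 genes (0.524%) were higher and 29 (0.292%) lower in the p53 f/+ tumors. Lrp11 spanned 5.25 to 8.92 in the p53 f/f tumors (median 6.60) and was 2.69 higher in the p53 f/+ tumors (adjusted p = 0.00369). Fndc10 spanned 5.69 to 10.23 (median 7.38) and was 2.39 higher (adjusted p = 0.0163). Gpnmb spanned 6.23 to 13.26 (median 8.04) and was 2.76 higher (adjusted p = 0.0465). Rgs1, a G-protein regulator of activated lymphocytes, spanned 4.79 to 7.77 in the p53 f/f tumors and 6.73 to 8.85 in the p53 f/+ tumors, a difference of 1.77 (adjusted p = 0.0182). All of these ranges overlapped. Tulp2, a Tubby-like protein, was 1.75 higher than in the p53 f/f tumors (adjusted p = 0.00774), and the endothelial clotting factor Vwf 1.59 higher (adjusted p = 0.0434).

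Against the p53 f/f tumors, 2 of 11 fetal liver and progenitor genes and 4 of 16 S phase genes were lower, beside 0.292% of all genes. Igf2, the fetal insulin-like growth factor, lay between 15.08 and 15.49 in all p53 f/f tumors, near the top of the scale, and between 9.05 and 15.52 in the p53 f/+ tumors. The difference of -2.64 (adjusted p = 0.0159) may be understated, since the p53 f/f levels lie where the scale ends. Igf2bp3, an RNA-binding protein that binds Igf2 mRNA, differed by -1.61 (adjusted p = 0.0108) and Igdcc4, an immunoglobulin-superfamily receptor, by -2.00 (adjusted p = 0.0258). Uhrf1, which recruits DNA methylation to newly copied DNA, was 4.95 to 7.04 in the p53 f/+ and 6.11 to 9.82 in the p53 f/f tumors, a difference of -2.10 (adjusted p = 0.00146). Cdca7, a chromatin remodeling partner expressed in S phase, differed by -1.64 (adjusted p = 0.0139). Among S phase genes, the helicase subunits Mcm2 (-1.39) and Mcm5 (-1.34) and the ligase Lig1 (-0.88) were called lower as well, and these 3 were named after their values were seen. Cbr3 and Mup3 did not pass this test, with differences of 0.23 (adjusted p = 0.94) and 0.00.

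These differences between the tumor groups rested on few mice. Only slides 3 and 4 held arrays of both tumor groups, and the part of slide was not tested. The 95th percentile of signal had a median of 1396 over the p53 f/+ and 1892 over the p53 f/f arrays. With median scaling 2 genes were called higher and 5 lower. Without tumor 18 alone, 4 genes were called higher and 3 lower, and without tumor 14, 103 and 97. Of 10 alternative settings, Lrp11 kept its call in 9, Fndc10 in 6 and Gpnmb in 4.

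**Figure D2:**
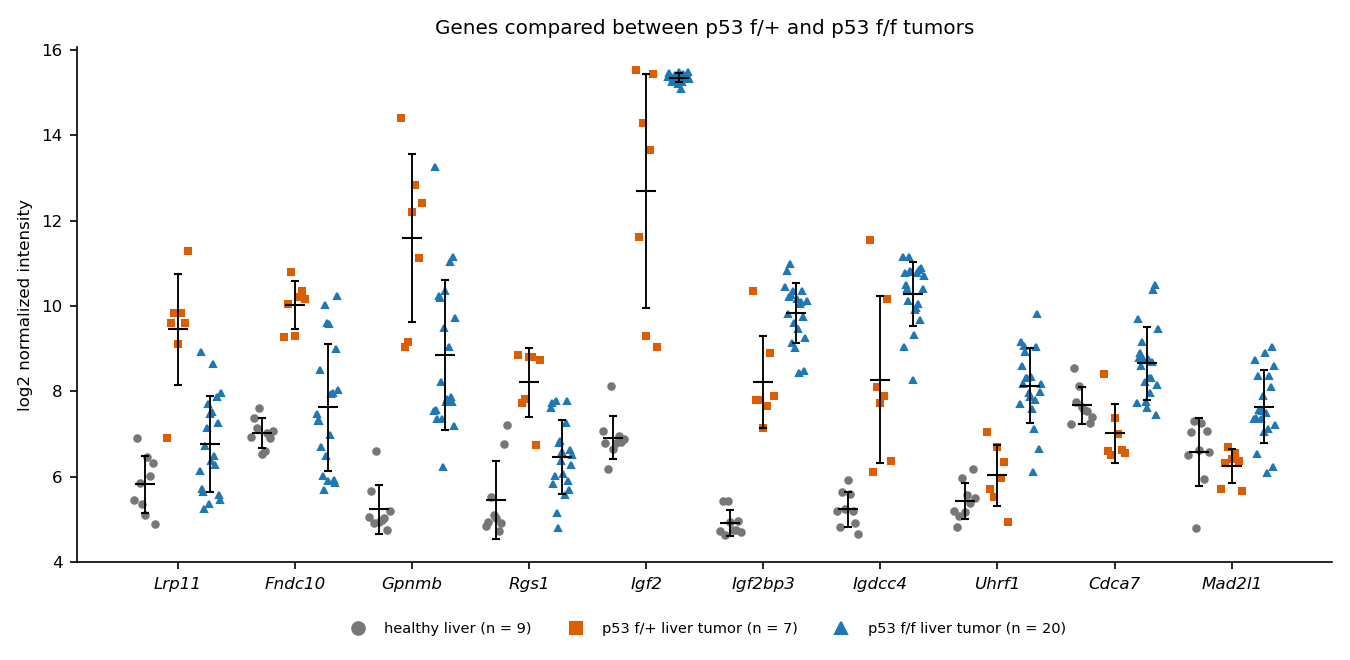
Log2 level (vertical axis) of 10 genes in 9 healthy livers, 7 p53 f/+ tumors and 20 p53 f/f tumors, 1 point per array with the group mean and SD. Lrp11, Fndc10, Gpnmb and Rgs1 were higher in the p53 f/+ than in the p53 f/f tumors, Igf2, Igf2bp3, Igdcc4, Uhrf1, Cdca7 and Mad2l1 lower, and single arrays of both tumor groups overlapped for each gene.

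Mad2l1 itself ranged from 5.65 to 6.69 in the p53 f/+ tumors (median 6.37) and from 4.79 to 7.31 in healthy liver (median 6.62), a difference of -0.32 ± 0.38 (adjusted p = 0.584). The ranges overlapped entirely, and with median scaling the difference was 0.00095. Healthy liver, which divides little, is a low reference for this cell cycle gene, and whether the probe lies in a deleted exon could not be established here, so the value checks neither the deletion nor the labels. Against the p53 f/f tumors (6.08 to 9.04, median 7.51) Mad2l1 was 1.40 log2 units lower (adjusted p = 0.0385), a call that 3 of 10 alternatives kept. Trp53 was not analysed here. Met, the hepatocyte growth factor receptor, was 5.13 to 7.24 in the tumors and 4.78 to 7.51 in the livers (-0.45 ± 0.29, adjusted p = 0.274). Myc was 5.00 to 7.79 in the tumors and 4.61 to 5.83 in the livers (0.82 ± 0.29, adjusted p = 0.0357), with its highest value in tumor 29, and 12 of 32 alternatives lost the call, among them healthy liver 1 put back (0.61, adjusted p = 0.234). Myc was detected in 1 liver.

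Among 20 Nrf2 targets tested, 11 rose in the tumors and none fell, with a median difference of 1.11, beside 12.3% of all genes higher and a median of -0.03. Groups did not overlap for 7 of them, beside 3.56% of all genes. The count called was 11 with healthy liver 1 put back as well. Nrf2 is the transcription factor that switches on glutathione synthesis, conjugation and export under oxidative or electrophile stress. It acts at antioxidant response elements with the core TGACNNNGC. The following windows are shown because they hold this core, in capitals, within the promoters of targets that rose. Each is 29 bases of RefSeq sequence from GRCm38.p6, on the strand of the gene. In Srxn1, Gclm and the first window of Abcc4 the core lies on the opposite strand and reads GCNNNGTCA.
Srxn1, chr2:152105542-152105570, plus strand: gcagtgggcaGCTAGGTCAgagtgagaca
Gclm, chr3:122245413-122245441, plus strand: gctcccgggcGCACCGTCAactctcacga
Abcc4, chr14:118706226-118706254, minus strand: gccccgagagGCGGGGTCAgggcgggccg
Abcc4, chr14:118676936-118676964, minus strand: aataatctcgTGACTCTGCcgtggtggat

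Promoters of 250 bases before to 50 bases after a start were searched on both strands. The core was present for 8 of 24 listed targets with a promoter (33.3%) and for 3 of 9 that rose (33.3%), against 14.0% of all 27025 genes with a promoter. A match is a description of these letters. Cbr3, Gsta1, Gsta2, Gpx2, Slc7a11 and Nqo1 had no match in this window.

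Srxn1, which repairs overoxidized peroxiredoxins, ranged from 10.32 to 12.98 in the tumors (median 12.21) and from 9.82 to 11.31 in the livers (median 9.95). The groups overlapped, and the difference was 1.75 ± 0.54 (adjusted p = 0.0177). Gclm, a subunit of the rate-limiting enzyme of glutathione synthesis, ranged from 10.33 to 11.60 against 10.10 to 11.10 (0.59 ± 0.19, adjusted p = 0.0222). Abcc4, an export pump for conjugates and bile acids, ranged from 9.24 to 11.18 (median 9.73) against 4.63 to 8.38 (median 7.39), with no overlap and a difference of 2.81 ± 0.80 (adjusted p = 0.00918). These 3 genes and Nqo1 were named after their values were seen.

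The largest rises of the Nrf2 list were in detoxifying enzymes. Cbr3, a carbonyl reductase, ranged from 9.82 to 13.44 in the tumors (median 12.98) and from 5.73 to 8.21 in the livers (median 6.58). Tumor 14 held the lowest value, and the other 6 lay between 12.64 and 13.44. The difference of 5.69 ± 0.99 (adjusted p = 7.16e-05) was 5.00 without Xist-positive arrays (adjusted p = 0.0441). Gsta1, an alpha-class glutathione transferase, was 12.26 to 13.71 against 5.23 to 9.84, a rise of 4.86 ± 0.73 (adjusted p = 8.31e-06). Gpx2, a glutathione peroxidase better known from gut epithelium, was 7.72 to 13.67 against 4.87 to 6.95, a rise of 5.34 ± 1.11 (adjusted p = 0.00058). Neither overlapped between tumor and liver, and Gpx2 was detected in 2 livers.

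Slc7a11, the cystine importer that feeds glutathione synthesis, was detected in all 7 tumors and in no healthy liver, so it entered the test through the tumors. Its rise was at least 15.9-fold (adjusted p = 0.000656), counted against the lowest signal among detected probes, and its tumor values ran from 5.63 in tumor 14 to 11.84. Gsta2 rose by 3.33 ± 0.64 (adjusted p = 0.000245) and Nqo1, a quinone reductase, by 1.88 ± 0.64 (adjusted p = 0.0305). In the wider list of 30 glutathione and conjugation enzymes 4 rose and 7 fell (median -0.21), or 13.3% and 23.3% beside 12.3% and 10.7% of all genes. With healthy liver 1 put back 4 rose and 4 fell. The 4 that rose were Gsta1, Gsta2, a further alpha-class enzyme and Mgst3, a microsomal glutathione transferase (1.67 ± 0.38, adjusted p = 0.00129). Gstp2, a pi-class enzyme among the most variable genes between mice, is not in this list and is not in its counts. It was 13.98 in the median tumor but 5.39 in tumor 14, below all livers (6.69 to 11.56). Its difference was 4.33 ± 1.30 (adjusted p = 0.0145), so it was called higher as well. Glutathione transferases are a family of close copies, and a probe can bind more than its own transcript. Without Xist-positive arrays 8 of the 20 targets rose, and without tumor 14 the count was 11.

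**Figure D3:**
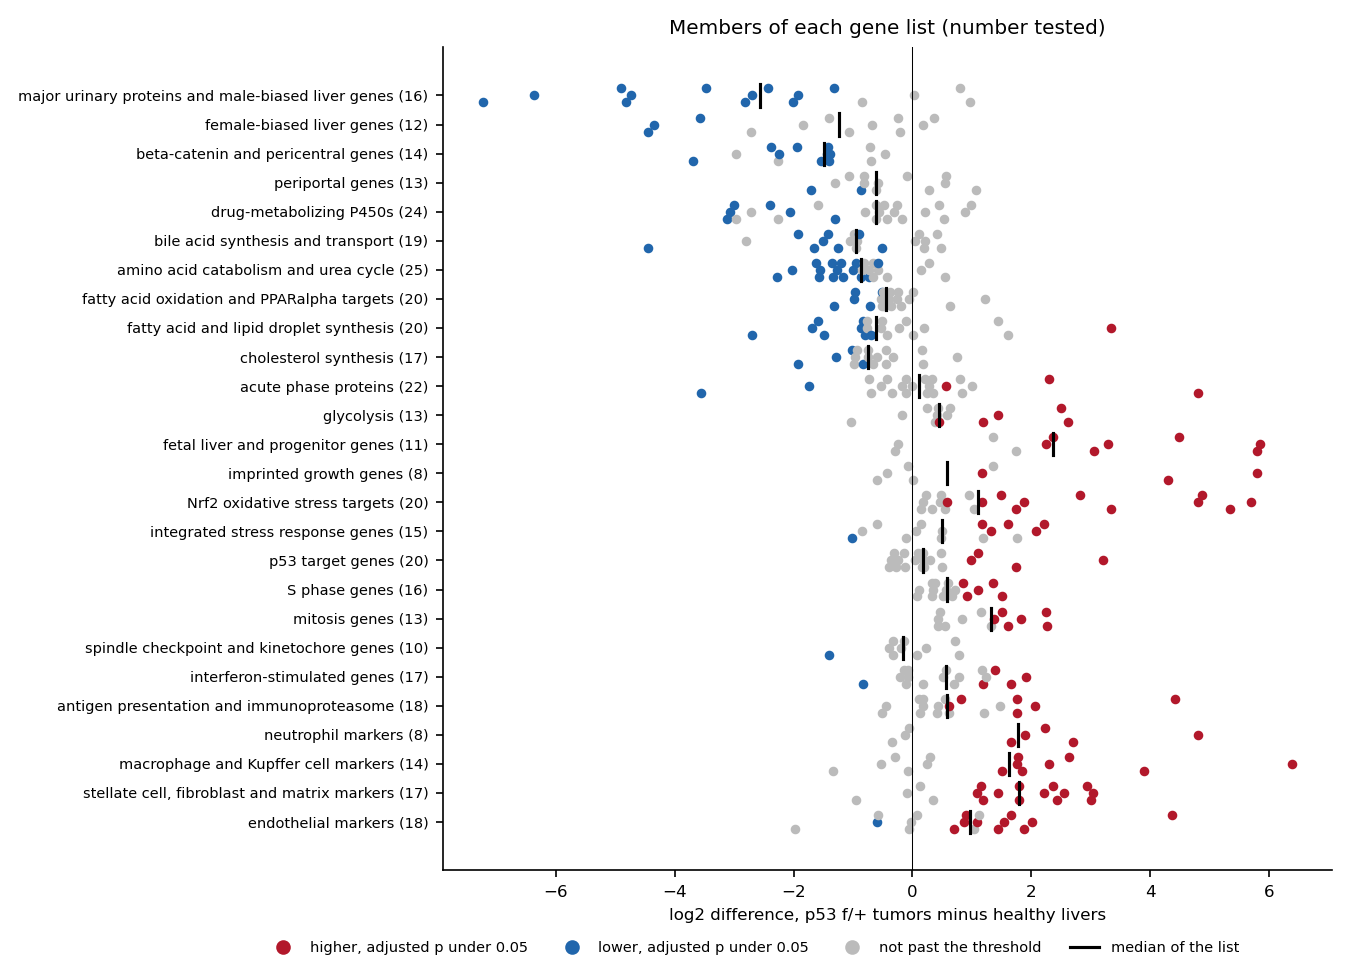
Tumor minus healthy difference (log2, horizontal axis) of each tested member of selected gene lists, 1 point per gene, coloured by whether it was called higher, lower or not, with a line at the list median. Members of the Nrf2, fetal liver and matrix lists lay mostly above 0, and members of the male-biased, amino acid and bile acid lists mostly below.

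Of 11 fetal liver and progenitor genes tested, 7 were higher in the tumors and none lower (median 2.35), beside 12.3% of all genes higher. With the 9 livers kept, groups did not overlap for 4 of them, beside 3.56% of all genes. With healthy liver 1 put back 6 were higher. Igf2 was 9.05 to 15.52 in the tumors (median 13.65) against 6.18 to 8.11 in the livers (median 6.81), a rise of 5.79 ± 0.60 (adjusted p = 1.83e-08). Igf2 varied widely among the tumors, even of the same mouse, with 15.44 in tumor 28 but 9.05 in tumor 29, and 14.28 in tumor 16 but 9.29 in tumor 17. Igf2bp3 was detected in 7 tumors and no liver, so it entered the test through the tumors. It was at least 5.93-fold higher (adjusted p = 2.47e-08). Spink1, a secreted trypsin inhibitor, rose by 4.49 ± 0.89 (7.31 to 14.24 against 4.95 to 6.68, adjusted p = 0.000334), with its highest value in tumor 14. Sox9, a transcription factor of bile duct and progenitor cells, rose by 2.25 ± 0.37 (adjusted p = 3.3e-05), with healthy liver 5 at 11.35 among the tumor values.

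Imprinted growth genes showed 3 of 8 higher and none lower (median 0.58). Beside Igf2 these were Phlda2, a growth-restraining placental gene, with a rise of 4.29 ± 0.61 (8.60 to 11.88 against 4.75 to 6.84, adjusted p = 4.3e-06), and Grb10, an adaptor of the insulin receptor (1.17 ± 0.44, adjusted p = 0.049), which 23 of 32 alternatives lost. Among receptor kinases and growth factors, 3 of 19 rose and 4 fell (median -0.19, and 0.00 with median scaling), or 15.8% and 21.1% beside 12.3% and 10.7% of all genes. The EGF receptor ligand Btc rose by 2.46 ± 0.51 (8.75 to 10.14 against 6.21 to 7.29, adjusted p = 0.000534) and Erbb2 by 0.61 ± 0.21 (adjusted p = 0.0313), a call lost in 13 of 32 alternatives. Those that fell included Igf1, the circulating adult growth factor (10.30 to 13.14 against 13.48 to 14.16, -1.71 ± 0.64, adjusted p = 0.048, a call lost in 23 of 32 alternatives), the growth hormone receptor Ghr (-1.32 ± 0.28, adjusted p = 0.000757) and the leukemia inhibitory factor receptor Lifr (-1.64 ± 0.30, adjusted p = 0.000142). None of these 3 overlapped between the groups. The calls of Grb10 (0.62, adjusted p = 0.558), Erbb2 (0.30, adjusted p = 0.605), Igf1 (-1.32, adjusted p = 0.223) and Ghr (-0.97, adjusted p = 0.102) ended with healthy liver 1 put back. On the arrays without Xist, 1 gene of this list fell and none rose.

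Cell division genes rose in part. Of 13 mitosis genes 6 were higher and none lower (median 1.31), and of 16 S phase genes 5 were higher and none lower (median 0.58). The share of all genes higher was 12.3%. Prc1, which bundles the central spindle, was 6.07 to 9.43 in the tumors against 5.34 to 7.09 in the livers (2.25 ± 0.49, adjusted p = 0.000974). Pbk, a mitotic kinase, was 4.78 to 8.44 against 4.87 to 6.02 (2.26 ± 0.56, adjusted p = 0.0034). Tumor 29 lay within the healthy range for Prc1 and below it for Pbk, while the other 6 tumors lay higher. Kif2c, a microtubule-depolymerizing kinesin, was detected in 6 tumors and in no liver, so it entered the test through the tumors. It was at least 1.95-fold higher (adjusted p = 0.00607). Rrm2, a subunit of ribonucleotide reductase, rose by 1.51 ± 0.35 (adjusted p = 0.00154), Chaf1b, a histone chaperone, by 1.11 ± 0.30 (adjusted p = 0.00656), and Mcm6, a replicative helicase subunit, by 1.35 ± 0.47 (adjusted p = 0.0345).

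The cell division calls depended on the arrays used. Putting back healthy liver 1 alone left 2 mitosis genes and 1 S phase gene higher, and ended the calls of Kif2c (adjusted p = 0.0865), Chaf1b (adjusted p = 0.26) and Mcm6 (adjusted p = 0.279). With liver tumor 13 and healthy liver 1 put back, no mitosis or S phase gene was called in either direction, and without Xist-positive arrays 5 mitosis genes and no S phase gene were. Healthy liver 1 had a Prc1 level of 10.90, above all tumors. Genes of the spindle checkpoint, in which Mad2l1 acts, and of the kinetochore showed no rise and 1 fall of 10 (median -0.17, and 0.14 with median scaling), beside 10.7% of all genes lower. The member that fell was Spc24, a kinetochore subunit of the Ndc80 complex (-1.41 ± 0.38, adjusted p = 0.00609).

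Of 20 p53 target genes 4 rose and none fell (median 0.17), a share of 20.0% higher against 12.3% of all genes. On the arrays without Xist 2 rose and 1 fell, and with the authors' log2 values 2 rose. Cdkn1a, the p21 cell cycle inhibitor, was 8.98 to 12.10 in the tumors (median 11.07) and 5.97 to 9.90 in the livers (median 7.56), a rise of 3.20 ± 0.50 (adjusted p = 1.71e-05). The overlap came from healthy liver 3 at 9.90. Phlda3, an Akt inhibitor, rose by 1.74 ± 0.33 (6.42 to 7.68 against 4.92 to 5.64, adjusted p = 0.000237) and the kinase Plk2 by 1.10 ± 0.33 (adjusted p = 0.0145), a call lost with healthy liver 1 put back (0.97, adjusted p = 0.0641). Of 9 cell cycle inhibitors and cyclin D kinases, limma called none, and 1 was higher at an unadjusted p under 0.05.

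Stress genes moved in part. Integrated stress response genes showed 5 higher and 1 lower of 15 (median 0.50), beside 12.3% and 10.7% of all genes. With healthy liver 1 put back 2 were higher, and Psat1 (adjusted p = 0.201) and Mthfd2 (adjusted p = 0.157) lost their calls. Atf3, a stress-induced transcription factor, rose by 2.22 ± 0.38 (6.30 to 10.28 against 4.82 to 5.83, adjusted p = 6.06e-05), while Psat1 of serine synthesis (2.07 ± 0.77, adjusted p = 0.0466) rested on tumor 14 at 12.18 and 22 of 32 alternatives lost it. Mthfd2, a mitochondrial folate enzyme, rose by 1.60 ± 0.52 (adjusted p = 0.0228). Within slide 6 the difference was -0.17 for Psat1 and -0.21 for Mthfd2. Without Xist-positive arrays 1 member was higher and none lower. Of 18 chaperones 1 rose (Hspb1, 1.47 ± 0.48, adjusted p = 0.0237) and 1 fell (Dnaja1, -1.11 ± 0.21, adjusted p = 0.000188), or 5.56% each way, with a median of 0.00.

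Glycolysis showed 5 of 13 enzymes higher and none lower (median 0.45), beside 12.3% of all genes higher. The list had 2 higher on the arrays without Xist and 3 with the authors' log2 values. Pkm, the pyruvate kinase of fetal and dividing tissue, was 8.18 to 12.20 against 6.58 to 8.57 (2.62 ± 0.52, adjusted p = 0.000374), Pfkp, a phosphofructokinase isoform, rose by 2.49 ± 0.58 (adjusted p = 0.0019), and Aldoa, the muscle-type aldolase, was 10.31 to 12.03 against 9.25 to 9.87, without overlap (1.44 ± 0.23, adjusted p = 2.66e-05). Gluconeogenesis and glycogen genes had 1 of 13 lower, or 7.69% beside 10.7% of all genes. It was the glycogen-targeting phosphatase subunit Ppp1r3b (-1.68 ± 0.33, adjusted p = 0.000312). For ribosome biogenesis the count was 2 of 16 higher, Myc and the nucleolar protein Nop58 (1.10 ± 0.31, adjusted p = 0.00817), a share of 12.5% beside 12.3% of all genes. The calls of Pkm (1.96, adjusted p = 0.0736), Ppp1r3b (-1.20, adjusted p = 0.113), Myc and Nop58 (0.94, adjusted p = 0.0543) ended with healthy liver 1 put back, which left 2 glycolysis genes higher.

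Of 16 major urinary proteins and other male-biased liver genes 12 were lower in the tumors and none higher (median -2.56), beside 10.7% of all genes lower. The Mup genes are a family of close relatives clustered on chromosome 4, and a probe can bind transcripts of several. The stretch of their promoters around a shared TATATA is shown because it is alike among members that fell. Each line is 30 bases of RefSeq sequence from GRCm38.p6, on the strand of the gene, with the TATATA box-like element in capitals.
Mup2, chr4:60139871-60139900, minus strand: ccgctgaacccagagagTATATAaggacaa
Mup3, chr4:62087316-62087345, minus strand: ccactgaaaccagagagTATATAaggacaa
Mup6, chr4:60003435-60003464, plus strand: ccactgaacccagagagTATATAaagacaa
Mup21, chr4:62150837-62150866, minus strand: ccactgaaaccagagagTATATAaggacaa

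Mup3 and Mup21 were identical over all 30 bases and the other pairs at 28 of 30. Over 100 bases, compared without gaps, the pairs were identical at 48 to 57 positions, a count that a single inserted or deleted base would lower. TATATA reads the same on both strands and occurred within 40 bases before a start in 371 of 27025 genes (1.37%).

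Mup3 was 4.59 to 10.82 in the tumors (median 6.94) and 14.26 to 15.42 in the livers (median 14.95). Its fall of 7.21 ± 1.12 on the log2 scale (adjusted p = 1.61e-05) is a description, because healthy liver 1 was left out with its Mup3 level of 4.68 in view. With it put back the groups overlap and Mup3 differed by -6.18 (adjusted p = 0.00295). Tumors 15 (10.76) and 17 (10.82) kept the most and tumor 29 the least. Mup6 was 4.82 to 9.69 against 11.56 to 13.74 (-6.36 ± 0.70, adjusted p = 4.51e-08), and Mup20, the male pheromone darcin, was 4.59 to 7.83 against 9.24 to 12.41 (-4.82 ± 0.58, adjusted p = 2.22e-07). For all 3 every tumor lay below the 9 livers kept, and healthy liver 1 was low for Mup6 (4.72) and Mup20 (4.61) as well. With it put back they differed by -5.55 and -4.25 (adjusted p = 0.000168 and 0.000194). Mup2 sat at the top of the scale in the livers (15.60 to 15.77), so that its fall may be understated, and spanned 5.28 to 15.60 in the tumors (-4.90 ± 1.28, adjusted p = 0.00495). Mup5 (-3.47 ± 0.50, adjusted p = 4.79e-06) and Mup21 (-2.69 ± 0.75, adjusted p = 0.00838), named after their values were seen, fell less. The calls of Mup2 (-3.92, adjusted p = 0.0732) and Mup21 (-1.94, adjusted p = 0.185) ended with healthy liver 1 put back, and 8 of the 16 genes of the list were then lower.

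Mup genes are known to be higher in males, and values are therefore also given for the arrays without Xist, though the sex of those tumors is not established. There Mup3 fell by 6.59 ± 1.48 (adjusted p = 0.00821), Mup6 by 6.18 (adjusted p = 3.65e-05) and Mup20 by 5.86, and 11 of the 16 genes of the list were lower. Mup2 differed by -3.57 (adjusted p = 0.166). Hsd3b5, a male-biased steroid dehydrogenase, was detected in no tumor and in 8 livers, so it entered the test through the livers. It was at least 18.7-fold lower (adjusted p = 9.58e-06). Its liver levels were 10.9 to 13.6 without Xist and 5.30 to 10.3 with Xist.

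The count of female-biased genes called differed between sets of arrays. Over all arrays 3 of 12 were lower (median -1.23), beside 10.7% of all genes. Without Xist-positive arrays, a set that also drops 1 of the 4 mice, 1 was higher and none lower (median 0.81). With the Xist level as a covariate 2 of the 12 were lower (median -0.68), and none was with healthy liver 1 put back (A1bg -3.91, adjusted p = 0.0567, and Cyp2b9 -3.71, adjusted p = 0.0579). A1bg, a plasma glycoprotein of female mouse liver, was high only in livers 6 to 10, where Xist was detected, and its difference of -4.44 ± 1.34 (adjusted p = 0.0146) became 1.38 (adjusted p = 0.197) without them. Sult3a2, a sulfotransferase, was detected only in the same 5 livers, so it entered the test through the livers. It went from at least 8.60-fold lower (adjusted p = 0.00258) to a difference of 0.06. Cyp2b9 fell by 4.35 ± 1.24 (adjusted p = 0.00976) over all arrays and differed by -1.06 (adjusted p = 0.709) without Xist-positive arrays. Sult2a8, a hepatic bile acid sulfotransferase, was 4.49 to 6.65 against 7.85 to 10.41, a difference of -4.37 ± 0.30 (adjusted p = 2.42e-13), and fell by 3.91 without Xist-positive arrays.

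Members of 5 lists of adult liver metabolism were lower, in differing shares, beside 10.7% of all genes. Of 25 genes of amino acid catabolism and the urea cycle 15 were lower (median -0.86), of 14 beta-catenin and pericentral genes 9 (median -1.49), of 19 bile acid genes 8 (median -0.95), of 24 drug-metabolizing P450s 6 (median -0.62), of 13 periportal genes 2 (median -0.62), and no member of these 5 lists was higher. Without Xist-positive arrays the counts of lower members were 1, 2, 2, 1 and 0, and without tumor 14 they were 9, 6, 4, 3 and 0. Putting back healthy liver 1 gave 2, 7, 3, 2 and 0, so these calls depended on which arrays were used. The medians of the 5 lists on the arrays without Xist were -0.85, -1.27, -0.70, -0.67 and -0.37, over 5 tumors and 4 livers.

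In bile acid metabolism, Cyp8b1, the sterol 12-hydroxylase that sets the share of cholic acid, was 6.02 to 12.60 in the tumors (median 9.23) and 12.77 to 14.58 in the livers (median 13.67). All tumors lay below all livers, with a difference of -4.45 ± 0.93 (adjusted p = 0.000601) that was -3.86 (adjusted p = 0.0198) without Xist-positive arrays. Cyp7b1, of the alternative pathway, fell by 1.93 ± 0.59 (adjusted p = 0.0158) and Slco1b2, a bile acid and drug uptake carrier, by 1.66 ± 0.51 (adjusted p = 0.0167). Both calls ended with healthy liver 1 put back (adjusted p = 0.161 and 0.446). Cyp7a1, which catalyzes the committed step from cholesterol to bile acids and was named after its values were seen, did not pass the test, with 5.33 to 12.61 in the tumors against 9.87 to 13.92 (adjusted p = 0.0541).

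Among pericentral genes, Slc1a2, a glutamate carrier, was 4.83 to 10.68 against 10.73 to 12.00 (-3.69 ± 0.90, adjusted p = 0.00269), and Tbx3, a transcriptional repressor downstream of Wnt, was 4.54 to 8.46 against 7.19 to 9.81 (-2.24 ± 0.51, adjusted p = 0.00151). Oat, the ornithine aminotransferase, fell by 2.37 ± 0.84 (adjusted p = 0.0371), a call lost in 18 of 32 alternatives. Of the P450s, Cyp2c37, which metabolizes arachidonate, was 4.59 in tumor 14 but up to 13.97 in the other tumors, against 12.60 to 14.99 in the livers (-3.01 ± 0.93, adjusted p = 0.0167). Cyp2e1, the pericentral ethanol-oxidizing P450, also named after its values were seen, was 5.28 in tumor 14 with a tumor median of 12.85, against 14.00 to 15.24 in the livers, and did not pass the test (adjusted p = 0.0511). Cyp2c54 fell by 3.11 ± 0.77 (adjusted p = 0.00316) and Cyp2c50 by 3.07 ± 0.91 (adjusted p = 0.0124). These genes are close copies of each other. The calls of Oat (-2.14, adjusted p = 0.0934), Cyp2c37 (-2.35, adjusted p = 0.143) and Cyp2c50 (-2.38, adjusted p = 0.135) ended with healthy liver 1 put back.

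In amino acid catabolism, Cbs, which starts transsulfuration, was 9.12 to 11.08 against 11.10 to 12.63 (-1.63 ± 0.28, adjusted p = 5.93e-05), with no overlap. Prodh, which oxidizes proline, fell by 2.27 ± 0.60 (adjusted p = 0.00561), and Agxt, which detoxifies glyoxylate, by 2.03 ± 0.69 (adjusted p = 0.0303). Tumor 14 was lowest by a wide gap for Prodh (5.20) and Agxt (5.46), and both calls ended with healthy liver 1 put back (adjusted p = 0.0895 and 0.275). Among the conjugation enzymes and esterases, the carboxylesterases Ces3b (5.06 to 11.34 against 12.19 to 13.73, -3.84 ± 0.83, adjusted p = 0.000899) and Ces3a (-3.20 ± 0.58, adjusted p = 0.00012) fell without overlap. Dct, a tautomerase known from pigment cells, was 4.99 to 7.71 against 8.45 to 12.08 (-4.42 ± 0.73, adjusted p = 3.44e-05), and Lrtm1, a leucine-rich membrane protein, fell by 4.52 ± 0.70 (adjusted p = 1.66e-05). Ugt2b1, a glucuronosyltransferase, fell by 2.44 ± 0.36 (adjusted p = 5.33e-06).

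Lipid genes were lower in part. Of 20 genes of fatty acid and lipid droplet synthesis 8 fell and 1 rose (median -0.61), beside 10.7% of all genes lower and 12.3% higher. Scd2, the desaturase of fetal liver and brain, rose at least 6.07-fold (adjusted p = 1.34e-07). It was detected in all 7 tumors and no liver, so it entered the test through the tumors. Srebf1, the regulator of fatty acid synthesis, fell by 1.69 ± 0.29 (6.99 to 8.16 against 8.59 to 10.19, adjusted p = 5.77e-05), Thrsp by 2.70 ± 0.67 (adjusted p = 0.0034) and the elongase Elovl6 by 1.59 ± 0.52 (adjusted p = 0.0237). Fatty acid oxidation had 5 of 20 lower (median -0.44), among them Decr1, a mitochondrial reductase (-1.32 ± 0.28, adjusted p = 0.000645). Cholesterol synthesis had 4 of 17 lower (median -0.75), with Sc5d at -1.92 ± 0.34 (adjusted p = 7.3e-05). Without Xist-positive arrays none of the 8 synthesis genes and none of the 4 cholesterol genes was called lower, and Sc5d differed by -0.96 (adjusted p = 0.154). Putting back healthy liver 1 left no gene of fatty acid synthesis or oxidation and 1 of cholesterol synthesis lower, with Srebf1 at -1.24 (adjusted p = 0.0705), Thrsp at -1.96 (adjusted p = 0.149), Elovl6 at -1.40 (adjusted p = 0.0791) and Decr1 at -0.94 (adjusted p = 0.131).

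Of 18 hepatocyte transcription factors 3 fell and none rose (median -0.47), or 16.7% lower beside 10.7% of all genes. They included the bile acid receptor Nr1h4 (-0.90 ± 0.27, adjusted p = 0.0134) and the oxysterol receptor Nr1h3 (-0.61 ± 0.16, adjusted p = 0.00618). The count depended on single arrays, with 6 lower without healthy liver 5 (median -0.29), 1 lower with healthy liver 1 put back, where Nr1h3 differed by -0.09 (adjusted p = 0.925), and 1 higher and none lower on the arrays without Xist. Of 12 circadian clock genes 4 fell (33.3%, median -0.49), led by Dbp (-2.37 ± 0.63, adjusted p = 0.00561), and 2 fell on the arrays without Xist. The time of day of dissection is not in the labels used here. The iron hormone Hamp was 4.99 to 13.04 in the tumors and 12.06 to 13.46 in the livers (-3.56 ± 0.95, adjusted p = 0.00581), a call lost with healthy liver 1 put back (-2.80, adjusted p = 0.0917). It is counted with the acute phase proteins, of which 3 of 22 rose and 2 fell (median 0.11).

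**Figure D4:**
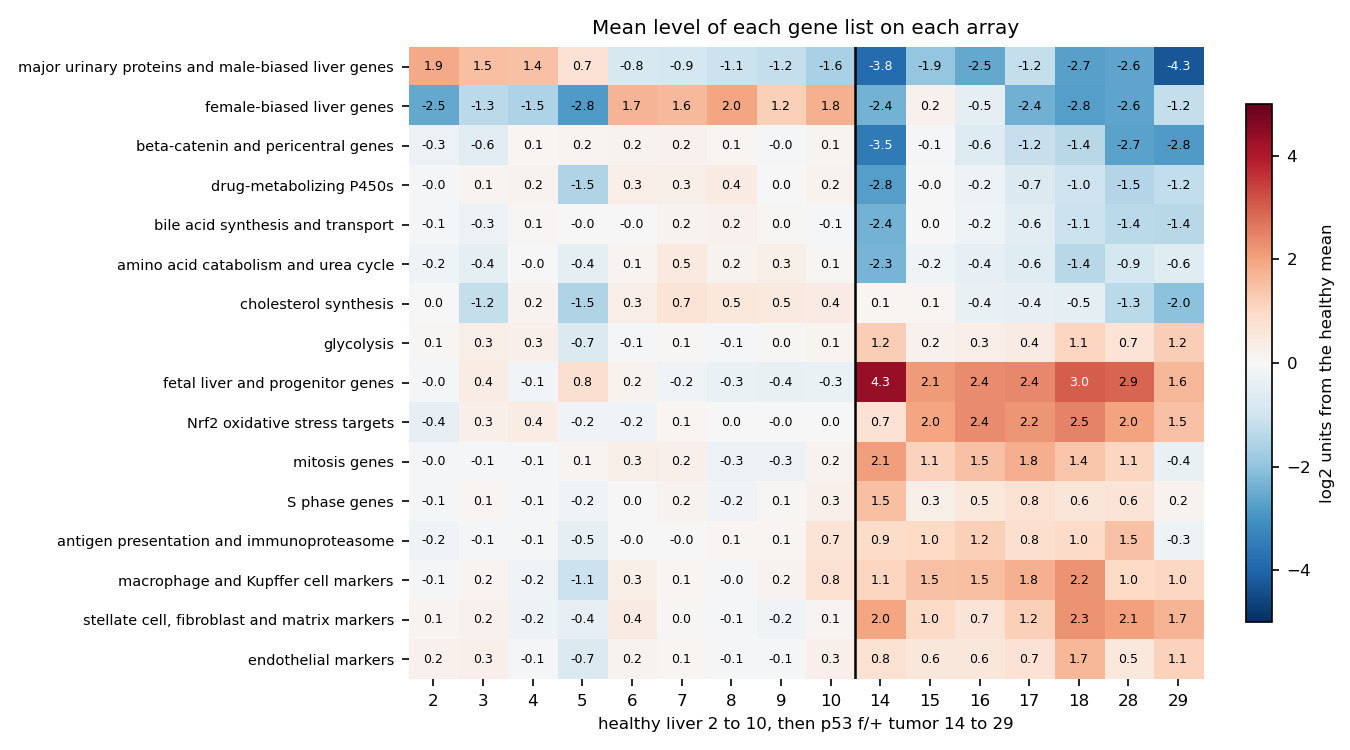
Mean log2 level of each of 16 gene lists (vertical) on each array (horizontal), minus the mean over the 9 healthy livers, shown by colour. Matrix, macrophage, endothelial, fetal liver and Nrf2 lists were above the healthy mean on all 7 tumor arrays, and the male-biased list was below it on all 7. Healthy livers 6 to 10, where Xist was detected, also lay below it for the male-biased list. The ranges of that list overlapped, with 7.14 to 10.23 in the tumors and 9.81 to 13.30 in the livers.

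Markers of stromal, macrophage, endothelial and neutrophil cells were higher in the tumors, those of lymphocytes were not called, and their part in the results above was not tested. With healthy liver 1 put back the counts higher were 8 of 17 matrix, 8 of 14 macrophage, 7 of 18 endothelial and 2 of 8 neutrophil markers. Stellate cell, fibroblast and matrix markers rose most widely, with 13 of 17 higher and none lower (median 1.78), beside 12.3% of all genes higher. Their mean level was 8.46 to 10.06 in the tumors against 7.41 to 8.22 in the livers. Col1a1, the main fibrillar collagen, was 6.45 to 10.35 against 4.92 to 6.12 (3.00 ± 0.48, adjusted p = 2.55e-05), and Acta2, smooth muscle actin, 9.61 to 12.97 against 7.08 to 10.62 (2.94 ± 0.56, adjusted p = 0.000208). Timp1, an inhibitor of matrix proteases, rose by 3.04 ± 0.62 (adjusted p = 0.000506), and Pdgfrb, the receptor that marks stellate cells and pericytes, was 5.81 to 7.14 against 4.58 to 5.65 (1.44 ± 0.22, adjusted p = 1.03e-05). Without Xist-positive arrays 6 of the 17 were higher.

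Macrophage and Kupffer cell markers showed 8 of 14 higher and none lower (median 1.63), beside 12.3% of all genes higher. The count was 8 also without Xist-positive arrays and without tumor 14. Their mean level was 8.75 to 10.00 in the tumors and 6.69 to 8.52 in the livers. Trem2, a receptor of lipid-laden macrophages, was 6.41 to 9.90 against 5.00 to 6.10 (2.64 ± 0.39, adjusted p = 7.43e-06), and Cd14, the endotoxin co-receptor, was 9.60 to 11.75 against 5.80 to 7.34 (3.90 ± 0.61, adjusted p = 1.68e-05). Markers of resident Kupffer cells did not pass the test: Clec4f was 4.67 to 11.62 against 9.79 to 10.95 (adjusted p = 0.372) and Vsig4 was 5.25 to 11.93 against 8.35 to 11.60 (adjusted p = 0.76). The general macrophage marker Adgre1 was 4.84 to 6.80 against 4.79 to 6.35, near the bottom of the scale in both groups.

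Endothelial markers showed 10 of 18 higher and 1 lower (median 0.97), beside 12.3% and 10.7% of all genes. Their mean level was 8.93 to 10.06 against 7.68 to 8.67. Pecam1 rose by 1.65 ± 0.43 (adjusted p = 0.0044), Cdh5 of endothelial junctions by 1.43 ± 0.35 (adjusted p = 0.00264), Emcn by 2.01 ± 0.39 (adjusted p = 0.000233) and Vwf by 1.87 ± 0.45 (adjusted p = 0.00256, and 0.0596 with healthy liver 1 put back). Kdr, the main receptor for vascular endothelial growth factor, was the member that fell (-0.60 ± 0.16, adjusted p = 0.00599), a call that median scaling lost. The list had 5 higher and 1 lower both on the arrays without Xist and with the authors' log2 values.

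Neutrophil markers showed 5 of 8 higher (median 1.78), beside 12.3% of all genes. S100a8 was 9.76 to 10.62 against 5.89 to 9.57 (2.70 ± 0.69, adjusted p = 0.00407). S100a9, its partner, was detected in 6 tumors and no liver, so it entered the test through the tumors. It was at least 2.03-fold higher (adjusted p = 0.0447), and 26 of 32 alternatives lost that call. Without Xist-positive arrays 1 neutrophil marker was higher. Antigen presentation genes showed 6 of 18 (33.3%) higher and none lower (median 0.58). Among them were the class II genes Cd74 (2.06 ± 0.60, adjusted p = 0.0111) and H2-Eb1 (1.76 ± 0.55, adjusted p = 0.0171). Ubd, a ubiquitin-like protein induced by cytokines, rose by 4.41 ± 0.96 (adjusted p = 0.000892). On the arrays without Xist 1 antigen presentation gene was higher, and 2 were with liver tumor 13 and healthy liver 1 put back. That liver alone put back left 3 higher and ended the calls of Cd74 (1.69, adjusted p = 0.0877) and H2-Eb1 (1.36, adjusted p = 0.157).

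Of 17 interferon-stimulated genes 4 rose and 1 fell (median 0.56), or 23.5% and 5.88% beside 12.3% and 10.7% of all genes. Rsad2 was 1.66 ± 0.32 higher (adjusted p = 0.000224) and the chemokine Cxcl10 1.90 ± 0.55 higher (adjusted p = 0.0112), while Stat2 was 0.84 ± 0.24 lower (adjusted p = 0.0106), a fall that neither median scaling nor healthy liver 1 put back (-0.68, adjusted p = 0.0944) kept. No lymphocyte marker passed the test. None of 8 T and NK cell markers and none of 4 B cell and plasma cell markers was called by limma, nor did any pass an unadjusted p of 0.05. Cd3e was 5.32 to 6.41 in the tumors and 5.18 to 6.91 in the livers, and Cd79b 5.29 to 6.92 against 4.82 to 6.66. The bile duct keratin Krt7 was 5.50 to 7.17 against 5.01 to 6.03, with 2 of 5 bile duct markers higher, Sox9 and Tff3. Several further defining markers, such as Alb, Epcam and Krt19, were not analysed here.

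The tumors differed from each other as single pieces. Per gene, the median SD was 0.42 over the tumors and 0.46 over the livers. The livers include healthy liver 5, which correlated least with the others. Between pairs of arrays, the median absolute difference in level had a median of 0.32 for livers and 0.45 for tumors from different mice. It ranged from 0.19 to 0.91 for livers and from 0.22 to 0.59 for those tumors. Median correlations were 0.955 and 0.924. These measures thus ranked the spread of the groups differently from the SD. Tumor 14 had the lowest Cbr3, Slc7a11, Gstp2, Cyp2c37, Agxt and Prodh and the highest Igf2, Gpnmb, Spink1, Psat1 and Ltf, a neutrophil and epithelial iron-binding protein (12.34 against 6.15 in the lowest tumor). It also held 12.49 of Slc13a4, a sulfate carrier that was not called. Tumor 29 had the lowest Mup3, Igf2, Prc1 and Pbk and the highest Myc and Atf3. Tumor 28, from the same mouse, had the highest Obp2a, an odorant-binding lipocalin (15.67). Among the most variable genes over the means of mice was also Sult2a2, at 6.54 to 12.79 in the tumors and 4.71 to 14.43 in the livers (1.42 ± 1.42, adjusted p = 0.507).

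Expression was also averaged by chromosome, since loss of the checkpoint is known to cause missegregation. On each array, log2 levels relative to the healthy mean were averaged over the genes of an autosome, and the average over all autosomes was subtracted. These chromosome means were compared between 4 mice and 9 livers by a two-sided exact permutation test over 715 splits, whose smallest possible p is 0.0014. Of 19 autosomes 7 were higher in the tumors (1, 2, 5, 15, 16, 17 and 18) and 2 were lower (4 and 9) after Benjamini-Hochberg adjustment over the 19. All shifts were small.

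Chromosome 4 was 0.20 lower (adjusted p = 0.00886), and all 7 tumors, at -0.09 to -0.29, lay below all livers, at -0.03 to 0.04. It carries the Mup cluster, whose part in this mean was not tested. The median over its genes was -0.17. Chromosome 18 was 0.16 higher (adjusted p = 0.00886), again with all 7 tumors above the 9 livers kept, a call lost with liver tumor 13 and healthy liver 1 put back (0.13, adjusted p = 0.161), and chromosome 15 was 0.18 higher (adjusted p = 0.0133). Single tumors showed larger means, such as 0.62 on chromosome 12 and -0.39 on chromosome 10 in tumor 14, 0.46 on chromosome 17 and -0.42 on chromosome 13 in tumor 28, 0.37 on chromosome 15 in tumor 16 and 0.34 on chromosome 5 in tumor 29. These are transcript levels, and DNA copy number was not analysed here.

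**Figure D5:**
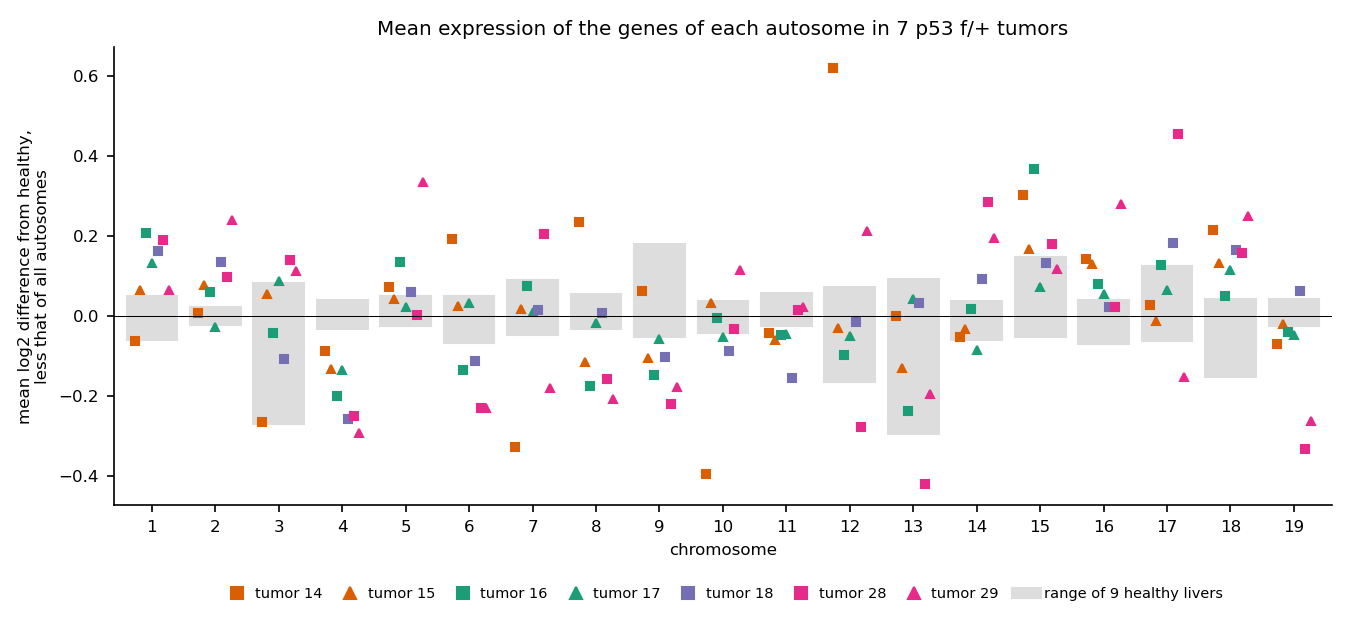
Chromosome mean of log2 levels relative to healthy liver and to all autosomes (vertical axis) for 19 autosomes (horizontal axis), 1 point per tumor (coloured by mouse), with grey bars for the range of the 9 healthy livers. All 7 tumors lay below the livers on chromosome 4 and above them on chromosome 18, and single tumors lay far from the others on chromosomes 5, 10, 12 and 17.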

How the data were processed

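RNA from mouse liver tumors and healthy livers was hybridized to Illumina bead arrays. The authors deposited a probe table with an intensity per probe, background already subtracted, and a detection score equal to 1 minus the detection p-value. They also deposited log2 values, normalized by them with limma per the labels' processing notes, used only as an alternative. Software behind the intensities is not given in the sources used here.

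With limma 3.58.1 (R 4.3.3, statmod 1.5.0), neqc was applied to the signals of 38 liver arrays with an offset of 16. Of 45281 probes 34885 had 1 gene symbol, 18 several and 10378 none listed. Probes detected (p under 0.05) on at least 5 of the 16 arrays were kept, 14737 in all, and the brightest per gene was used. Group means over 36 arrays were fitted with limma (lmFit, eBayes with trend and robust) with animal as a random block (correlation 0.0737). All tests were two-sided. Replicates were separate animals except tumor pairs. An "at least" fold sets the bright group's mean against the lowest detected signal, which averaged 5.44 in the tumors and 5.65 in the livers. Array number and signal over background limit precision. 1 array (2 columns) that no label names was not used.

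Named genes are Mad2l1, Met, Myc, Igf2, Lrp11, Fndc10, Cbr3 and Mup3, the 12 largest called changes each way, up to 3 called members each way of each of 41 lists, the defining cell type markers, the 8 most variable over mice and the 5 largest each way against p53 f/f tumors. Members and lists were chosen with earlier results of these data known. The fit was also run on simulated data without slide effects or outlying arrays, which cannot check the calls made here. Alternatives changed the arrays, scaling, offset, filter, probe choice, block and slide.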

Additional observations from a re-analysis of the deposited data

Results flagged for a closer look

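Of 331 groups of values tested for a single array far from the rest of its group, 50 passed, and chance alone would mark about 1 in 20. Healthy liver 5 accounted for 20 of them and tumor 14 for 11.

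Healthy liver 5, which also correlated least with the other livers, was the highest liver for Ghr (13.43), Gpnmb (6.60), Igf2 (8.11), Nop58 (10.85), Shmt2 (11.43), Sox9 (11.35), Stat2 (9.42), Tff3 (8.54) and Vwf (8.70). It was the lowest liver for Car1 (4.63), Cdh5 (5.01), Cpt2 (11.02), Cyp2c54 (4.87), Cyp2e1 (14.00), Emcn (5.48), Igfbp3 (4.86), Met (4.78), Nqo1 (4.97), Oat (11.88) and Sc5d (6.71).

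Tumor 14 stood apart with low Agxt (5.46), Cbr3 (9.82), Cyp2c37 (4.59), Cyp2e1 (5.28), Gstp2 (5.39), Nr1h3 (10.79) and Prodh (5.20), with high Ltf (12.34), Psat1 (12.18) and Slc13a4 (12.49), and with a mean of -0.39 for chromosome 10. Tumor 29 stood apart for Atf3 (10.28), H2-Eb1 (9.15), Pbk (4.78), Prc1 (6.07) and the mean of chromosome 5 (0.34).

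Further single arrays were healthy liver 3 for Cdkn1a (9.90), Hamp2 (8.85), Hspb1 (11.27), Psat1 (7.09) and S100a9 (5.51), healthy liver 10 for Atf3 (5.83) and H2-Eb1 (11.04), healthy liver 2 for Abcc4 (4.63) and Mgst3 (9.59), tumor 17 for Dnaja1 (5.70), Mup20 (7.83) and Mup5 (7.38), tumor 28 for Obp2a (15.67) and tumor 15 for Sult2a8 (6.65).

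Differences from the p53 f/f tumors that passed limma's test were Gpnmb (2.76), Lrp11 (2.69), Fndc10 (2.39), Rgs1 (1.77), Tulp2 (1.75) and Vwf (1.59), higher in the p53 f/+ tumors, and Igf2 (-2.64, possibly understated since p53 f/f levels reach the end of the scale), Uhrf1 (-2.10), Igdcc4 (-2.00), Cdca7 (-1.64), Igf2bp3 (-1.61), Mad2l1 (-1.40), Mcm2 (-1.39), Mcm5 (-1.34) and Lig1 (-0.88), lower there.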

How the results depend on the processing

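Against 1224 genes higher and 1063 lower, putting back healthy liver 1 gave 682 and 438, putting back it and liver tumor 13 gave 634 lower, slide as a fixed effect 196 and 194, the authors' log2 values 739 and 906, median scaling 327 lower, and arrays without Xist, chosen after seeing the data, 465 and 373. Leaving out each mouse gave 969 to 1136 higher and 730 to 978 lower, and each liver 1124 to 1372 and 953 to 1227. Of 135 named genes called, 25 kept direction and call in all 32 alternatives and 110 lost the call in at least 1. The cause was not tested.

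Against p53 f/f tumors (52 higher, 29 lower), putting back tumor 13 gave 149 and 81, averaging tumors of an animal 18 and 9, median scaling 2 and 5, the authors' log2 values 7 and 0 (502 at an unadjusted p under 0.05 in limma), omitting tumor 14, chosen after seeing the data, 103 and 97, and omitting each mouse 4 to 45 and 3 to 31. For chromosomes (7 higher, 2 lower), both arrays put back gave 2 higher, with chromosome 5 at 0.0468 (adjusted p = 0.596) and chromosome 18 at 0.13 (adjusted p = 0.161). Omitting each mouse gave 5 to 7 higher and 1 to 3 lower, and omitting tumor 14 gave 4 lower.

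With slide as a fixed effect, which rests on slide 6, directions turned for A1bg (0.11), Esr1 (0.15), Mthfd2 (-0.21), Nr1d2 (0.0890), Psat1 (-0.17), Shmt2 (0.0833), Sult3a2 (0.0725), Tef (0.13) and Uroc1 (0.0443). On arrays without Xist they turned for A1bg (1.38), Cyp2b13 (0.66), Ebp (0.0851) and Sult3a2 (0.0590), with median scaling for Mad2l1 (0.00095), and against p53 f/f tumors for Myc without tumors 28 and 29, whose difference ran from -0.10 to 0.49 over the mice left out. No paired analysis was possible because p53 f/+ tumors and healthy livers came from different mice. Array number and signal over background limit all results.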

Other observations

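Of 9 red cell precursor markers 4 were lower in the tumors (44.4%, beside 10.7% of all genes) and 1 was higher (median -0.45). On the arrays without Xist 2 were lower and none higher. Car1, a carbonic anhydrase of erythroid cells, fell by 2.15 ± 0.44 (adjusted p = 0.000501), the heme synthesis enzyme Alas2 by 1.59 ± 0.45 (adjusted p = 0.00916) and Tspan33, an erythroid tetraspanin, by 1.43 ± 0.33 (adjusted p = 0.00151), while Tfrc, the transferrin receptor of dividing and iron-importing cells, rose by 1.74 ± 0.47 (adjusted p = 0.00589).

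The acute phase proteins were called at shares of 13.6% higher and 9.09% lower, near the 12.3% and 10.7% of all genes, so nothing is read from the list. Among its single genes, Il1rn, the interleukin-1 receptor antagonist, was 7.34 to 10.59 in the tumors against 5.23 to 6.71 in the livers (2.29 ± 0.60, adjusted p = 0.00541) and the copper carrier Cp rose by 0.56 ± 0.16 (adjusted p = 0.0104). Saa4, a constitutive serum amyloid, was 8.16 to 10.55 against 10.97 to 12.29 (-1.74 ± 0.47, adjusted p = 0.00594). For Il1rn and Saa4 every tumor lay apart from the 9 livers kept. Hamp2, the second hepcidin gene, fell by 3.51 ± 1.06 (adjusted p = 0.015). The calls of Saa4 (-1.11, adjusted p = 0.305), Hamp2 (-2.71, adjusted p = 0.149) and, among the red cell markers, Alas2 (-1.14, adjusted p = 0.198) ended with healthy liver 1 put back.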
